A study of Mus musculus with 21 samples.

Results

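The genes described were the 4 muscle actins (Acta1, Acta2, Actc1 and Actg2), transgelin (Tagln), the calponins Cnn1 and Cnn2, the myosin regulatory light chain Myl9 and the tropomyosins Tpm1 and Tpm2, all genes of the contractile apparatus that are known targets of serum response factor (SRF). They were taken by symbol, which gave 10 of the 19321 genes with values in the table of coculture libraries and the same 10 of 27968 in the table of sorted-cell libraries. The genes were selected on the FPKM differences between the coculture groups, so the values of that contrast are given below as a description with no test. The list was drawn up with the results of the sorted-cell comparisons known as well. Their counts and p-values are therefore no independent support for the list.

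Actin filaments sliding against myosin give cells their tension, and tropomyosins, calponins and transgelin bind along the actin filament. SRF is a transcription factor that binds a short DNA element called the CArG box. Its coactivators, the myocardin-related factors, are held in the cytoplasm by monomeric actin and enter the nucleus when actin is assembled into filaments, while myocardin itself is expressed in smooth and cardiac muscle. Muscle actins are also expressed outside mature muscle, for example in stromal cells and in the early embryonic heart and somites.

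RNA-seq had been performed on 21 libraries in 7 groups of 3, all from mouse cells. Day 5 total cells came from colonies of 129/ola pluripotent stem cells that were induced in a 3D peptide gel for 6 to 8 days and then replated on OP9 stroma treated with mitomycin C (3D+OP9) or on 0.1% gelatin alone (3D+0.1% gelatin). From the OP9 coculture, lineage-negative Sca-1+c-kit+ (LSK) cells were sorted on day 5 with and without CD201, an endothelial protein C receptor used to enrich hematopoietic stem cells (D5-LSKCD201+ and D5-LSKCD201-), next to undifferentiated SSEA-1+ 129/ola embryonic stem cells kept on embryonic fibroblasts (mESC). LSKCD201+ cells of C57BL/6 mice came from bone marrow at 6 to 8 weeks of age (BM-LSKCD201+) and from mid-gestation fetal liver (FL-LSKCD201+), so strain and source change together in any comparison with these. OP9 are mouse cells, so their RNA could not be told apart in the 3D+OP9 total cells. The study calls the sorted-cell libraries biological replicates, and its figure on the day 5 LSK fractions names at least 3 independent experiments. For the mESC, BM-LSKCD201+ and FL-LSKCD201+ libraries, the sources used here do not say whether each came from a separate culture or animal. The p-values measure the spread between these libraries. In such bulk samples fewer cells of a type and less RNA per cell cannot be told apart.

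The sort markers followed the labels. Procr, which encodes CD201, had a mean of 59.7 FPKM (fragments relative to transcript length and to sequencing depth) in D5-LSKCD201+ against 3.48 in D5-LSKCD201-, while Kit had 44.5 and 28.8 and Ly6a, which encodes Sca-1, had 61.3 and 32.6. The defining blood marker Ptprc was nearly absent from both, at 0.409 and 0.633 FPKM, against 43.5 in FL-LSKCD201+ and 66.8 in BM-LSKCD201+. The D5-LSKCD201- libraries also held pluripotency and epithelial transcripts. Their Pou5f1 mean was 221 FPKM, against 2.34 in D5-LSKCD201+ and 426 in mESC, and their Krt8 mean was 639 against 11.6 in D5-LSKCD201+. In 4 groups 1 library stood apart from the other two over all genes, namely 3D+OP9 replicate 3, D5-LSKCD201- replicate 2, FL-LSKCD201+ replicate 1 and BM-LSKCD201+ replicate 1. D5-LSKCD201- replicate 2 held the highest value of its group for 9 of the 10 genes, and Actg2 was lowest there. The main differences, ratios and shares that these libraries moved are given with and without them.

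Of the 10 genes, 8 had a promoter in RefSeq on GRCm38.p6, a window from 250 bases before the transcription start to 50 after it, and Tagln and Actg2 were not matched. The CArG box is 10 bases long, a pair of C, then A or T only, then a pair of G, and reads as a CArG box on both strands. It was present in 4 of the 8 promoters (Acta1, Actc1, Cnn2 and Myl9) and in 535 of all 32851 promoters (1.63%). Allowing at most 1 base off, 6 of the 8 held it, with Acta2 and Tpm1 added, against 21.1% of all promoters. The 200 bases before the start of the 3 matched muscle actins are shown because the results below turn on the muscle actins. Capitals mark the CArG box of Acta1 and Actc1 and the pair of sites 1 base off in Acta2, and the sites 1 base off in Acta1 and Actc1 are left in lower case. They lie at chr8:123894776-123894975, chr2:114052876-114053075 and chr19:34255374-34255573 of GRCm38.p6, each on the minus strand. All distances here count from the RefSeq start, which can differ from the end of the annotated gene given below. The stretches of Actc1 and Acta2 lie within those gene bounds.
Acta1: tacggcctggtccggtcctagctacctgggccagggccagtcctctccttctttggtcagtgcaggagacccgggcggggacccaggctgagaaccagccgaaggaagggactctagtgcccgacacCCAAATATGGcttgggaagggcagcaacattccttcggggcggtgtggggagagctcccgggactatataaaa
Actc1: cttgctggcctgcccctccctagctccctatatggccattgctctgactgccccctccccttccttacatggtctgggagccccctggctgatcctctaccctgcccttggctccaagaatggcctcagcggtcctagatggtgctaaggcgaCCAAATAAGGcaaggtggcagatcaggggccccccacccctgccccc
Acta2: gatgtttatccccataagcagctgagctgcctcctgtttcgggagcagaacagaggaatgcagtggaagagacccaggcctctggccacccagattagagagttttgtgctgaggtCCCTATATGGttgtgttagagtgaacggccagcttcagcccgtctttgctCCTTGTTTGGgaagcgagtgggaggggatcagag

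The CArG box began 73 bases before the start of Acta1 and 47 before that of Actc1, and the sites of Acta2 began 84 and 34 bases before its start. In Myl9 and Cnn2 the box began 161 and 56 bases before the start. The 60 bases around each, on the plus strand at chr2:156775278-156775337 and chr10:79988519-79988578, are shown because Myl9 was near 0 in bone marrow cells and Cnn2 was high there, as described below.
Myl9: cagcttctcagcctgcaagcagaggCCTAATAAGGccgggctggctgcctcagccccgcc
Cnn2: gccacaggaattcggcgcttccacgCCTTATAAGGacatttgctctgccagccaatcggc

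The promoters of Cnn1 and Tpm2 held no site with fewer than 2 bases off in this window. A match is a description of the sequence, and no binding was measured here.

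On GRCm38, Acta1 (ENSMUSG00000031972) lies at chr8:123891769-123894751, Actc1 at chr2:114047282-114053548, Acta2 at chr19:34241090-34255590, Actg2 at chr6:83512905-83536265 and Tpm1 at chr9:67022590-67049406, all on the minus strand. Acta1 overlaps the coding gene Gm20388 and Actc1 overlaps A530058N18Rik, each on the other strand. Tagln (ENSMUSG00000032085) lies on the minus strand at chr9:45929619-45936058, where it overlaps Pcsk7 and the antisense gene Gm48529 on the other strand. Of its 1983 possible stretches of 150 bases, the read length, 798 (40.2%) also occur in a transcript of Gm48529, whereas the other 9 genes shared none with another gene. Whether reads were counted by strand is not given in the sources used here, so Tagln and Gm48529 may have shared reads. The deposited loci of Acta1, Actc1 and Tagln were wider than the annotated genes, and that of Acta1 spanned 4435.4 kb with 73 other coding genes. Whether this moved their values was not tested.

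In day 5 total cells, the contractile genes had lower values on OP9 stroma than on gelatin. Acta1, skeletal muscle actin, had 3.49, 3.35 and 3.90 FPKM in the 3D+OP9 libraries and 18.25, 24.86 and 22.40 in the 3D+0.1% gelatin libraries. The groups did not overlap, and the difference in log2(FPKM + 1), 3D+OP9 minus 3D+0.1% gelatin, was -2.31 (SE 0.13, n = 3 in each group). Tagln, an actin-bundling protein and early smooth muscle marker, had 28.40, 35.28 and 16.88 FPKM on OP9 and 125.78, 141.85 and 139.68 on gelatin, a log2 difference of -2.35 (SE 0.23). Cnn1, the smooth muscle calponin, had 12.31, 8.78 and 11.76 against 35.52, 38.94 and 41.21 FPKM, a log2 difference of -1.74 (SE 0.13). These 3 genes had the largest differences, and every OP9 library lay below every gelatin library for each.

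Differences of the other members were smaller. Myl9, the light chain whose phosphorylation starts contraction in smooth muscle and non-muscle cells, had 13.85 to 15.61 FPKM on OP9 and 31.63 to 33.90 on gelatin (log2 difference -1.09, SE 0.08). Tpm1 had 225.72 to 326.27 against 511.05 to 526.23 FPKM (-0.89, SE 0.13) and Tpm2 had 17.42 to 21.90 against 26.47 to 36.08 (-0.71, SE 0.14). Actc1, cardiac actin, had 12.11, 10.41 and 6.39 against 20.76, 15.68 and 17.38 FPKM (-0.86, SE 0.22), and the broadly expressed calponin Cnn2 had 91.26 to 111.84 against 135.70 to 151.82 (-0.47, SE 0.09). Acta2, the smooth muscle and myofibroblast actin, was the exception among the muscle actins that passed the filter, because its 28.40, 40.19 and 29.58 FPKM on OP9 overlapped the 34.99, 34.76 and 46.93 on gelatin (-0.25, SE 0.17). Actg2, the enteric smooth muscle actin, stayed under the filter of a mean of 0.5 FPKM with 0.12 to 0.31 against 0.39 to 0.79.

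**Figure D1:**
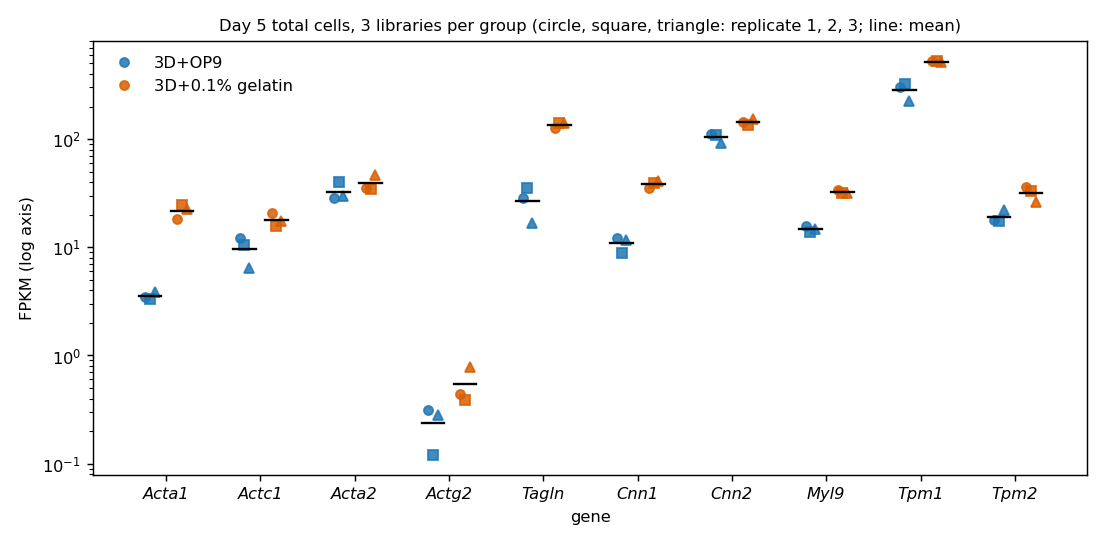
FPKM of each gene (log axis) in the 3 libraries of day 5 total cells on OP9 stroma (blue) and on 0.1% gelatin (orange), with circles, squares and triangles for replicates 1, 2 and 3 and lines for the means. Tagln lay at 16.88 to 35.28 on OP9 and 125.78 to 141.85 on gelatin, whereas Acta2 overlapped between the groups.

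For 8 of the 9 genes that passed the filter, every OP9 library lay below every gelatin library, as it did for 12.2% of the 12958 genes compared. Since this contrast led to the list, nothing is read from that count. Their median log2 difference was -0.89, beside 0.01 over all genes compared, and without 3D+OP9 replicate 3 it was -0.81, with Tagln at -2.06 and Actc1 at -0.62. Other markers differed as well. The summed FPKM of 8 epithelial markers was 462 to 470 on OP9 and 661 to 746 on gelatin, that of 6 endothelial markers 75.6 to 90.1 and 9.45 to 20.2, and that of 10 fibroblast and stromal markers 297 to 446 and 184 to 308. The sum of 6 blood markers was 17.2 to 21.5 and 2.31 to 3.45, and that of 6 pluripotency markers 614 to 1114 and 910 to 981, with lower means on OP9 for Pou5f1 (388 and 624), Nanog (73.3 and 149) and Sox2 (57.2 and 77.2) and higher ones for Dppa5a (191 and 82.7), Zfp42 (40.1 and 5.50) and Esrrb (33.1 and 2.08). Of the muscle lists, 12 cardiac markers summed to 14.7 to 22.5 on OP9 and 10.5 to 12.9 on gelatin, with Myl7 (5.81 and 1.32) higher and Tnnc1 (2.57 and 3.63) and Myl3 (0.473 and 1.20) lower on OP9. The 8 skeletal muscle markers summed to 8.30 to 11.07 and 2.40 to 4.58, and the 6 smooth muscle markers to 18.8 to 24.1 and 16.1 to 19.6, which overlapped. Of the smooth muscle markers, Smtn (16.1 and 14.4), Des (4.47 and 2.06) and Myocd (0.320 and 0.0867) had higher means on OP9, and Synpo2 (0.247 and 0.513), Lmod1 (0.153 and 0.407) and Myh11 (0.060 and 0.117) lower ones. The part of these cells in the differences was not tested.

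Among the sorted cells, D5-LSKCD201- had the highest mean of 9 of the 10 genes, and no library of the next group reached its range. Acta2 had 122, 185 and 121 FPKM in the 3 D5-LSKCD201- libraries, then 35.5, 42.3 and 40.3 in D5-LSKCD201+ and 4.88, 3.60 and 9.65 in mESC. In FL-LSKCD201+ it had 0.0589 to 0.165 and in BM-LSKCD201+ 0 to 0.166, and these last groups overlapped. The skeletal and cardiac actins exceeded 1 FPKM in no sorted-cell library outside D5-LSKCD201-. Acta1 had 9.08, 19.4 and 10.8 FPKM there, against 0.980, 0.459 and 0.382 in D5-LSKCD201+ and at most 0.426 in any library of the other groups. Actc1 had 18.5, 40.6 and 16.9 FPKM there, against 0.292 to 0.316 in D5-LSKCD201+ and at most 0.225 elsewhere. Actg2 was low in every group, with 4.89, 1.98 and 4.64 FPKM in D5-LSKCD201-, 1.36 to 1.85 in D5-LSKCD201+, 0.0371 to 0.674 in mESC, at most 0.0417 in FL-LSKCD201+ and a listed 0 in all BM-LSKCD201+ libraries.

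**Figure D2:**
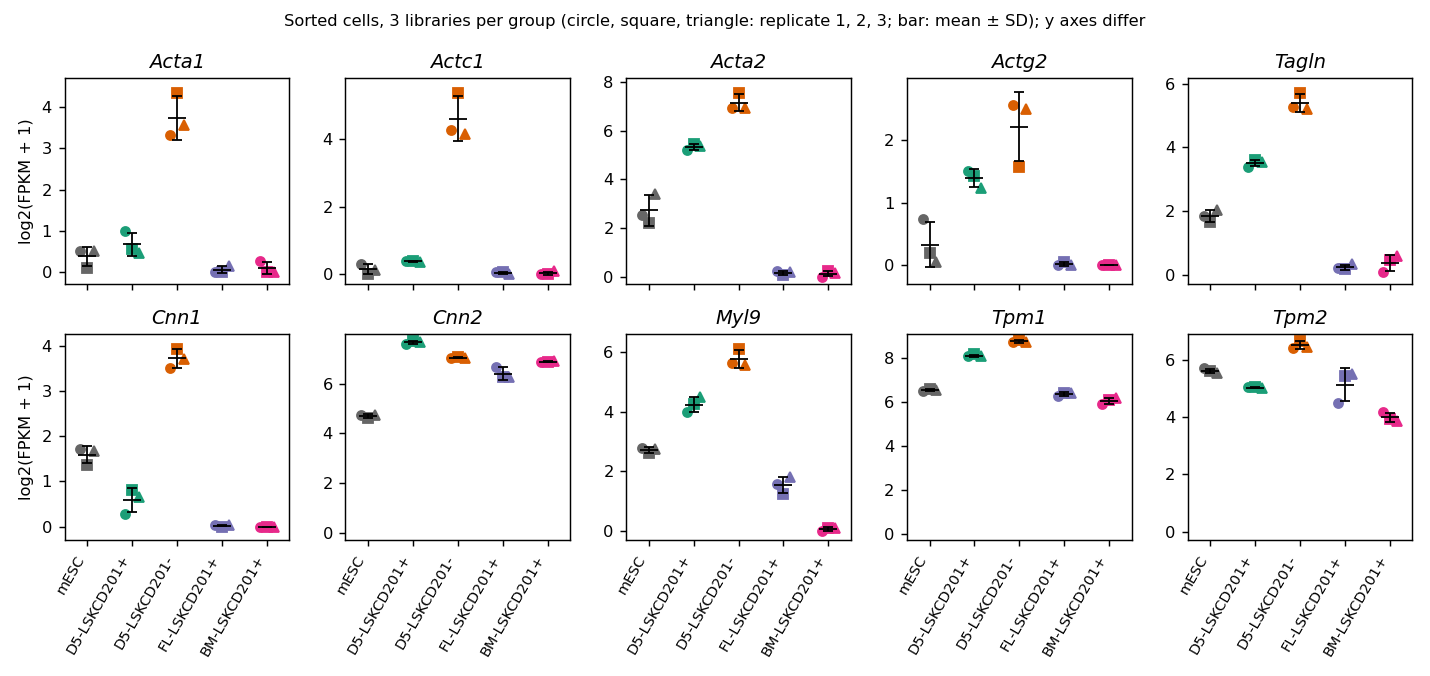
Log2(FPKM + 1) of each gene in the sorted-cell libraries (3 per group, symbols for replicates, bars for mean and SD, a separate y axis for each gene). D5-LSKCD201- stood highest for 9 genes, and Cnn2 was highest in D5-LSKCD201+ with 190.02 to 209.6 FPKM.

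Tagln followed the same order as Acta2 in the 3 stem-cell-derived groups. It had 37.3, 51.8 and 35.8 FPKM in D5-LSKCD201-, then 9.51, 11.1 and 10.6 in D5-LSKCD201+ and 2.62, 2.18 and 3.08 in mESC, and the groups did not overlap. In FL-LSKCD201+ and BM-LSKCD201+ it lay between 0.0653 and 0.489 FPKM, with overlap. Cnn1 had another order, since mESC came before D5-LSKCD201+. Its values were 10.4, 14.3 and 12.1 FPKM in D5-LSKCD201-, 2.26, 1.58 and 2.20 in mESC and 0.218, 0.747 and 0.571 in D5-LSKCD201+, and it was listed at 0 in all BM-LSKCD201+ libraries. Cnn2 was the only member to be highest in D5-LSKCD201+, with 190.02, 209.6 and 203 FPKM, followed by D5-LSKCD201- with 131, 133 and 129. It was also high in both blood groups, at 117 FPKM ± 2.03 (SD, n = 3) in BM-LSKCD201+ and 84.6 ± 15.1 in FL-LSKCD201+, and lowest in mESC at 24.9 ± 1.23.

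Myl9 had 48.1, 67.3 and 46.5 FPKM in D5-LSKCD201-, then 14.8, 18.0 and 21.3 in D5-LSKCD201+ and 5.10 to 5.88 in mESC. It separated the blood groups from each other, with 1.98, 1.39 and 2.51 FPKM in FL-LSKCD201+ and 0 to 0.0800 in BM-LSKCD201+. The tropomyosins were present in every group. Tpm1 had 428, 459.8 and 423 FPKM in D5-LSKCD201-, then 269.9, 287 and 273 in D5-LSKCD201+ and 90.9 to 95.1 in mESC, followed by FL-LSKCD201+ with 75.7 to 84.96 and BM-LSKCD201+ with 58.5 to 70.7, and no pair of neighbours in this order overlapped. Tpm2 had 84.6, 101 and 87.5 FPKM in D5-LSKCD201-, then 46.2 to 51.2 in mESC. Its next groups, FL-LSKCD201+ with 21.6, 42.3 and 44.5 FPKM and D5-LSKCD201+ with 31.3 to 32.1, overlapped because FL-LSKCD201+ replicate 1 was low, and BM-LSKCD201+ came last with 13.6 to 17.2.

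The comparison of D5-LSKCD201+ with D5-LSKCD201- asked what CD201 separates within the LSK cells of the coculture. Acta1, Acta2, Actc1, Tagln, Cnn1, Myl9 and Tpm2 were lower in CD201+ cells. A gene was called where limma, over the 13691 genes that passed the filter, gave an adjusted p below 0.05 and the log2 difference was 1 or more in either direction. Of the 10 genes, 7 were called lower in D5-LSKCD201+ and none higher, against 13.9% of all genes tested called lower and 10.8% called higher. The list was drawn up with these results known, so the count is a description. Of the 7, Actc1 passed the filter only through D5-LSKCD201-, where it is high, so it had to differ and its values are a description, and the other 6 averaged over 0.5 FPKM in both fractions. Without the size threshold all 10 passed the adjusted p. The median log2 difference of the 10 genes was -1.66, beside -0.12 over all genes tested.

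Cnn1 was 23.9-fold and Acta1 21.6-fold higher in D5-LSKCD201- by mean FPKM, with log2 differences (D5-LSKCD201+ minus D5-LSKCD201-) of -3.13 (SE 0.17, adjusted p = 4.41e-06) and -3.08 (SE 0.28, adjusted p = 5.33e-05). Without D5-LSKCD201- replicate 2 these ratios were 21.9 and 16.4. Both rest on low means in D5-LSKCD201+, 0.512 FPKM for Cnn1 and 0.607 for Acta1, just over the filter of 0.5. Actc1 had a ratio of 83.7, or 58.5 without that library, and a log2 difference of -4.23 (SE 0.30). Tagln differed by -1.88 (SE 0.14, adjusted p = 2.41e-05) and Acta2 by -1.80 (SE 0.17, adjusted p = 6.46e-05). Myl9 and Tpm2 differed by -1.52 (SE 0.18) and -1.48 (SE 0.08). Tpm1 was lower by less than the threshold, at -0.66 (SE 0.05, adjusted p = 3.68e-05), and Cnn2 was the only gene with a positive difference, 0.61 (SE 0.05, adjusted p = 4.65e-05). Actg2 had -0.82 (SE 0.26, adjusted p = 0.0270), and its adjusted p ran from 4.11e-05 to 0.0863 on leaving out single libraries. Without D5-LSKCD201- replicate 2 it became -1.13 (adjusted p = 4.11e-05), which made 8 genes called lower, and Actc1, Acta1 and Acta2 then had -3.84, -2.78 and -1.60.

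Markers of other cells moved with these genes. The summed FPKM of 12 cardiac markers was 60.2 to 69.6 in D5-LSKCD201- (8 of 12 with a mean of 0.5 FPKM or more) and 7.95 to 9.54 in D5-LSKCD201+ (4 of 12), with the atrial light chain Myl7 at 31.8 and 0.718 and the heart myosin Myh7 at 0.097 and 0.055, while the troponin Tnnt2 had 2.48 and 2.70. The 8 skeletal muscle markers summed to 73.6 to 83.6 and 29.4 to 31.0, most of the former from Mylpf (70.5), with Myog at 0 in both. Tnnt3 (6.98 and 26.1) and Tnni2 (0.867 and 1.34) had higher means in D5-LSKCD201+. Epithelial markers summed to 1226 to 1392 and 24.5 to 27.9, and pluripotency markers to 3198 to 3662 and 20.7 to 28.1. The sum of the 6 smooth muscle markers was 25.7 to 37.8 in D5-LSKCD201- against 123 to 125 in D5-LSKCD201+, nearly all of it smoothelin (Smtn, 27.2 and 123). The other 5 had higher means in D5-LSKCD201-, namely Des (3.96 and 1.34), Myocd (1.36 and 0.0764), Synpo2 (0.169 and 0.0113), Lmod1 (0.133 and 0.0410) and Myh11 (0.0260 and 0.0062), the defining myosin of smooth muscle. Fibroblast and stromal markers summed to 81.4 to 136 and 337 to 370, mostly from Fn1 (59.6 and 258), while Pdgfra (2.61 and 0.676) and Pdgfrb (2.19 and 1.301) had higher means in D5-LSKCD201- and Dcn had 3.23 and 3.44. The endothelial markers summed to 54.5 to 58.3 and 1038 to 1067, and 6 blood markers to 20.5 to 22.4 and 61.6 to 62.5. Of the blood markers, Itga2b (3.78 and 45.2) and Spi1 (5.90 and 13.0) had higher means in D5-LSKCD201+, Runx1 (5.39 and 1.80), Gata1 (4.56 and 0.406) and Ptprc (0.633 and 0.409) in D5-LSKCD201-, and Vav1 had 1.35 in both. The part of any of these cells in the differences was not tested.

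**Figure D3:**
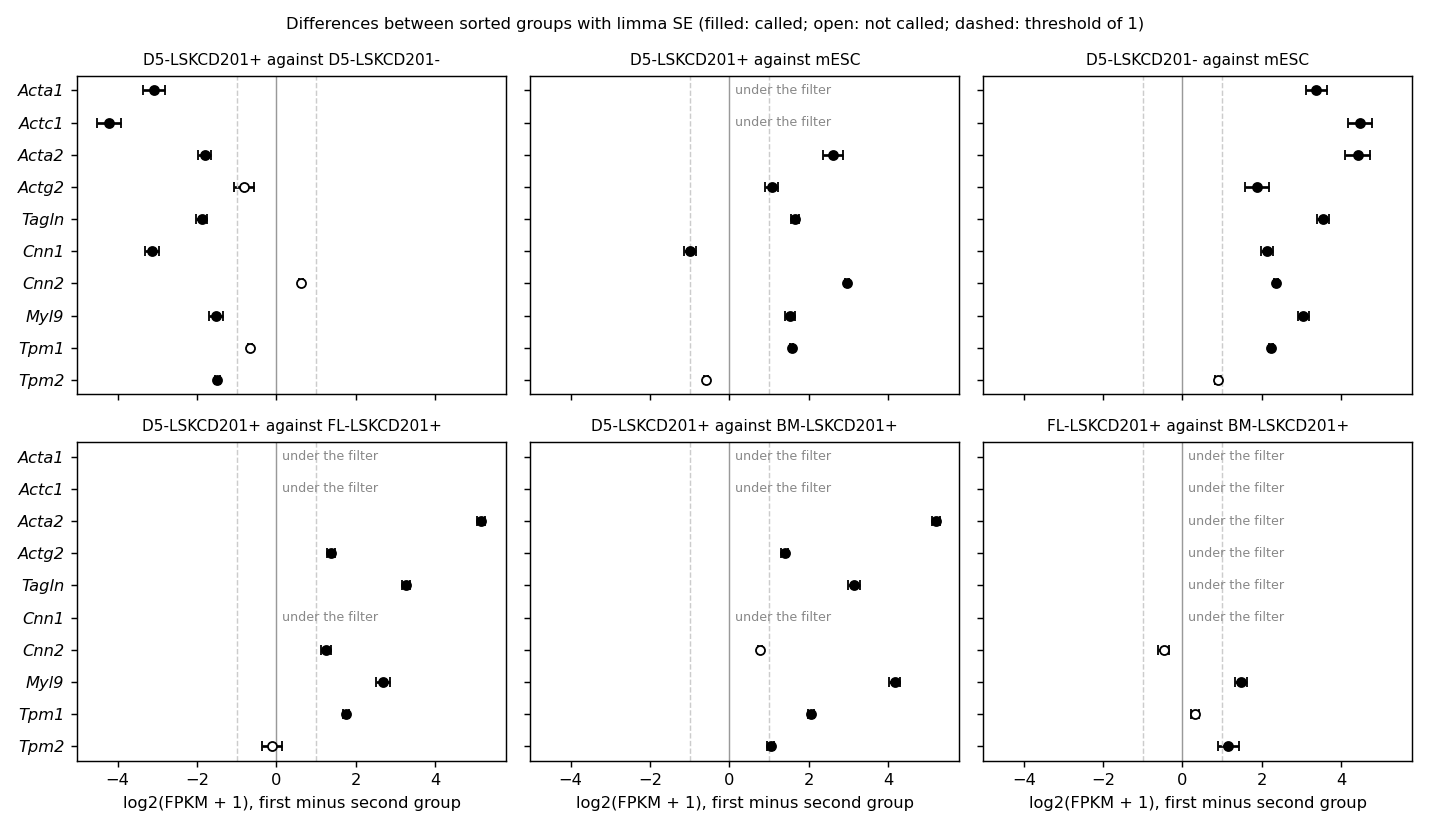
Difference in log2(FPKM + 1) of each gene in the 6 sorted-cell comparisons, first group minus second, with the limma SE as bars. Filled points were called (adjusted p below 0.05, difference of 1 or more in either direction), open points were not, and genes under the filter are named as such. Actc1 had -4.23 between the LSK fractions and 4.47 between D5-LSKCD201- and mESC.

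Against undifferentiated cells, both LSK fractions had higher levels of Acta2, Tagln, Cnn2, Myl9 and Tpm1. These comparisons share the mESC libraries, and the blood comparisons below share the D5-LSKCD201+ libraries, so each is given on its own. In D5-LSKCD201-, 9 of the 10 genes were called higher than in mESC and none lower, beside 10.9% of 13596 genes tested called higher and 3.48% called lower. Of the 9, Acta1, Actc1 and Actg2 averaged under 0.5 FPKM in mESC and passed the filter only through D5-LSKCD201-, so 3 of the calls had to differ. Acta2 rose by 4.41 (SE 0.31, adjusted p = 2.63e-05), Tagln by 3.54 (SE 0.16, adjusted p = 3.37e-06), Myl9 by 3.05 (SE 0.14, adjusted p = 4.18e-06), Cnn2 by 2.35 (SE 0.06), Tpm1 by 2.23 (SE 0.05) and Cnn1 by 2.13 (SE 0.15) on the log2 scale. As a description, the differences were 4.47 for Actc1, 3.38 for Acta1 and 1.88 for Actg2, and Tpm2 had 0.90 (SE 0.08, adjusted p = 9.58e-05). The same 9 counted as called without replicate 2 of D5-LSKCD201-, with Actc1 at 4.08. Under quantile normalization the split of all calls in this comparison moved from 1476 higher and 473 lower to 1104 and 741, and 9 members were called as before. In mESC the epithelial markers summed to 162 to 169 FPKM, against the 1226 to 1392 in D5-LSKCD201-, the cardiac ones to 4.44 to 5.48, the smooth muscle ones to 27.5 to 28.6, the skeletal ones to 52.3 to 61.4, the fibroblast and stromal ones to 36.6 to 41.2 and the pluripotency ones to 5696 to 6216. Their part in these differences was not tested.

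In D5-LSKCD201+, 8 members passed the filter against mESC, and Acta1 and Actc1 did not. Called higher were 6, beside 19.5% of 13441 genes tested, and 1 was called lower, beside 18.1%. Cnn2 rose by 2.97 (SE 0.05, adjusted p = 1.07e-10), Acta2 by 2.61 (SE 0.26, adjusted p = 1.03e-05), Tagln by 1.66 (SE 0.10, adjusted p = 4.30e-07), Tpm1 by 1.57 (SE 0.04), and Myl9 by 1.53 (SE 0.12). Actg2, with a difference of 1.06 (SE 0.17), averaged under 0.5 FPKM in mESC and passed the filter only through D5-LSKCD201+. Cnn1 was lower by a difference at the threshold, -1.003 (SE 0.15, adjusted p = 1.75e-04), and Tpm2 had -0.59 (SE 0.05, adjusted p = 2.45e-06). The calls of Actg2 and Cnn1 were lost on leaving out single libraries, with values of 0.99 and 0.92 for Actg2 without mESC replicate 2 or 3, and of -0.94, -0.96 and -0.86 for Cnn1 without mESC replicate 1, mESC replicate 3 or D5-LSKCD201+ replicate 1. The endothelial markers, at 18.3 to 19.2 FPKM in mESC and 1038 to 1067 in D5-LSKCD201+, differed beside these genes. Stromal (36.6 to 41.2 and 337 to 370), smooth muscle (27.5 to 28.6 and 123 to 125) and blood markers (2.65 to 3.08 and 61.6 to 62.5) also had higher sums. Within the smooth muscle list, Smtn rose (18.1 and 123) and Des fell (9.69 and 1.34). Synpo2 (0.203 and 0.0113), Lmod1 (0.0574 and 0.0410) and Myh11 (0.0217 and 0.00624) also had lower means in D5-LSKCD201+. Myocd had a higher one (0.0443 and 0.0764), and all of these lay under 0.5 FPKM. Epithelial (162 to 169 and 24.5 to 27.9) and pluripotency sums (5696 to 6216 and 20.7 to 28.1) were lower, though Krt8 (6.95 and 11.6) was higher. The part of these cells was not tested.

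Compared with LSKCD201+ cells of mice, D5-LSKCD201+ cells had more Tpm1, and more Myl9 and Cnn2 than the fetal liver cells. Against FL-LSKCD201+, 7 members passed the filter, 6 were called higher, beside 15.1% of 13627 genes tested, and none was called lower, beside 19.6%. Of the 6, Acta2, Tagln and Actg2 averaged under 0.5 FPKM in FL-LSKCD201+ and passed the filter only through D5-LSKCD201+, so 3 of the calls had to differ and the count is not read against the background. Myl9 was higher by 2.69 (SE 0.18, adjusted p = 1.39e-05), Tpm1 by 1.75 (SE 0.08, adjusted p = 1.68e-06) and Cnn2 by 1.25 (SE 0.13, adjusted p = 1.18e-04) on the log2 scale. As a description, the differences were 5.16 for Acta2, 3.27 for Tagln and 1.37 for Actg2. Tpm2 had -0.11 (SE 0.26, adjusted p = 0.719), which became -0.44 (adjusted p = 4.08e-05) without FL-LSKCD201+ replicate 1. Against BM-LSKCD201+, 7 passed and 6 were called higher, beside 17.5% of 13775 genes tested, and none lower, beside 27.2%. Acta2, Tagln, Actg2 and Myl9 averaged under 0.5 FPKM in BM-LSKCD201+ and passed only through D5-LSKCD201+, so 4 of these calls had to differ. Tpm1 was higher by 2.06 (SE 0.08, adjusted p = 1.72e-07) and Tpm2 by 1.04 (SE 0.09, adjusted p = 1.53e-05), while Cnn2 had 0.77 (SE 0.05, adjusted p = 3.73e-06). As a description, the differences were 5.21 for Acta2, 4.16 for Myl9, 3.14 for Tagln and 1.39 for Actg2. Without BM-LSKCD201+ replicate 1 the count stayed at 6, and without replicate 3 Tpm2 had 0.98 and the count was 5. Acta1, Actc1 and Cnn1 were under the filter in both comparisons. Fibroblast and stromal markers summed to 17.5 to 20.8 FPKM in FL-LSKCD201+ and 6.64 to 7.42 in BM-LSKCD201+, against the 337 to 370 in D5-LSKCD201+ given above, and endothelial markers to 133 to 166 and 104 to 113. Of the stromal markers, Postn was 10.5 in FL-LSKCD201+ and 7.92 in D5-LSKCD201+, and Pdgfrb was 3.44 in BM-LSKCD201+ and 1.301 in D5-LSKCD201+. The smooth muscle markers summed to 9.44 to 13.2 FPKM in FL-LSKCD201+ and 5.53 to 8.25 in BM-LSKCD201+, against 123 to 125 in D5-LSKCD201+. Myh11 and Lmod1 were listed at 0 in all FL-LSKCD201+ libraries, and Lmod1 and Myocd in all BM-LSKCD201+ libraries. Synpo2 went the other way, with means of 0.0738 in FL-LSKCD201+, 0.461 in BM-LSKCD201+ and 0.0113 in D5-LSKCD201+. So did Myh11 in BM-LSKCD201+ (0.0518, against 0.00624 in D5-LSKCD201+). The part of such cells in these differences was not tested.

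Between the blood groups, 4 members passed the filter, and Myl9 and Tpm2 were called higher in FL-LSKCD201+ than in BM-LSKCD201+, beside 7.78% of 13503 genes tested called higher and 11.3% called lower. Myl9, which passed the filter only through FL-LSKCD201+, differed by 1.47 (SE 0.16), and Tpm2 by 1.15 (SE 0.26, adjusted p = 0.00810). Tpm2 had 1.48 without FL-LSKCD201+ replicate 1 and 0.97 without replicate 3, under the threshold. Cnn2 had -0.48 (SE 0.13, adjusted p = 0.0163) and Tpm1 0.31 (SE 0.10, adjusted p = 0.0381). The epithelial markers summed to 44.7 to 57.9 FPKM in FL-LSKCD201+ and 173 to 191 in BM-LSKCD201+, mostly from Krt18 (39.3 and 160), while Epcam (2.57 and 2.29) and Cdh1 (0.462 and 0.0765) had higher means in FL-LSKCD201+. The blood markers summed to 339 to 378 and 431 to 462, with the erythroid factor Gata1 at 41.3 and 1.39. Their part in these differences was not tested.

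Shares within families set the members beside their non-muscle relatives, on the FPKM scale, which is per length. The 4 muscle actins made up 6.32% ± 2.54 (SD, n = 3) of the FPKM of all 6 actins in D5-LSKCD201- (4.85% without replicate 2), 1.02% ± 0.0604 in D5-LSKCD201+, 0.402% ± 0.189 in mESC, 0.0114% in BM-LSKCD201+ and 0.00484% in FL-LSKCD201+, the rest being the cytoplasmic actins Actb and Actg1. Acta2 had the largest mean share of the muscle actins in each group. In BM-LSKCD201+ that share ran from 0 to 100% between libraries. The muscle actins summed to a mean of 0.182 FPKM there and 0.200 in FL-LSKCD201+, so the ranking in these groups rests on values near 0. Acta1 took 27.7% ± 4.53 of the muscle actins on gelatin and 7.93% ± 1.76 on OP9 (7.04% without replicate 3). Actc1 took 13.1% ± 2.90 in D5-LSKCD201- (11.49% without replicate 2) and 0.723% ± 0.0455 in D5-LSKCD201+. Tagln was 41.3% ± 2.87 of the transgelins on gelatin and 10.5% ± 2.74 on OP9 (11.9% without replicate 3), and 21.1% (19.2% to 23.9%, and 19.6% without replicate 2) in D5-LSKCD201- against 1.91% ± 0.141 in D5-LSKCD201+, where its relative Tagln2 had 97.9%. Among the tropomyosins, Tpm1 had 34.5% ± 0.655 in D5-LSKCD201- and 14.6% ± 0.641 in D5-LSKCD201+, whereas the non-muscle Tpm4 had 26.9% ± 1.34 and 55.2% ± 0.849. In BM-LSKCD201+, Tpm3 made up 83.9% of tropomyosin FPKM.

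**Figure D4:**
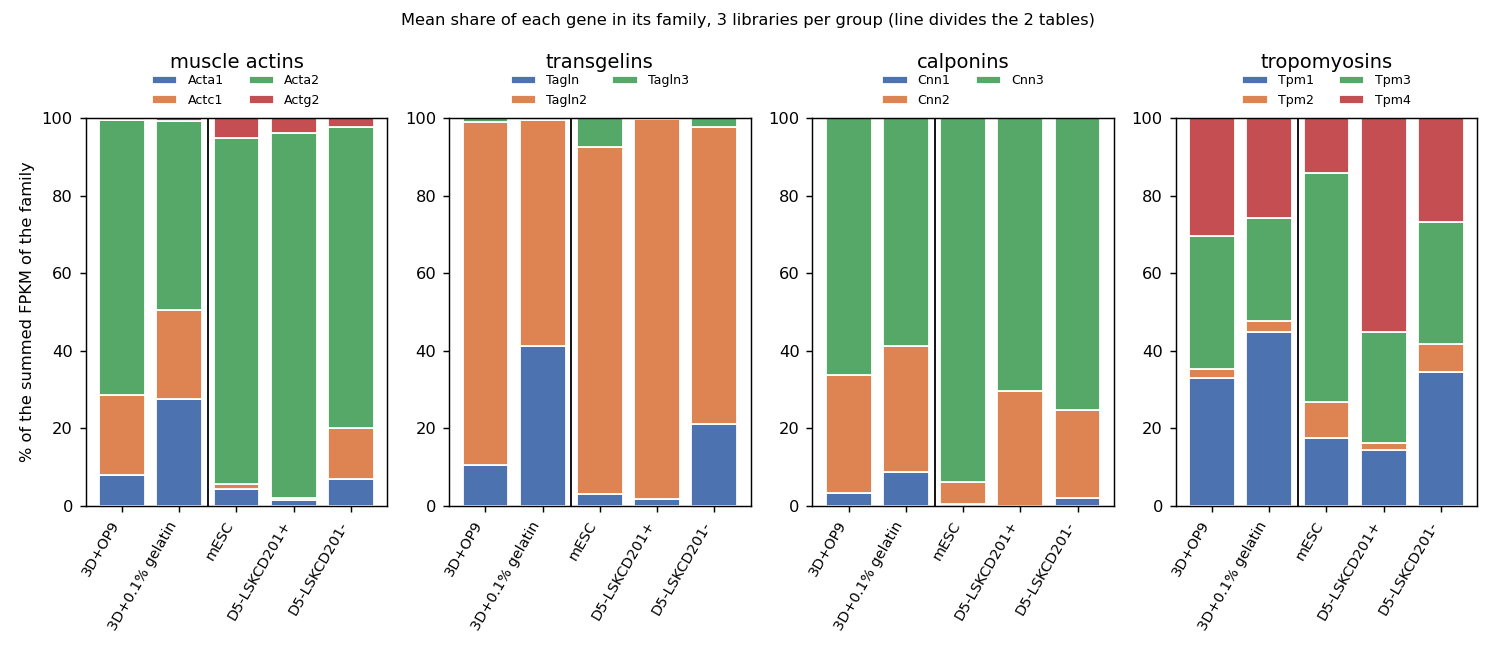
Mean share (%) of each gene in the summed FPKM of its family for the coculture groups and 3 sorted groups (3 libraries each; the line divides tables normalized separately). Tagln was 41.3% of the transgelins on gelatin and 10.5% on OP9, and 21.1% in D5-LSKCD201- against 1.91% in D5-LSKCD201+.

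Of a list of 44 other genes of the SRF and contractile pathway (10 regulators, 22 further targets and 12 non-muscle relatives), 10 were called higher and 6 lower in the CD201+ fraction of the 41 tested, with a median log2 difference of 0.33 beside -0.12 over all genes tested. Over all genes tested, 10.8% and 13.9% were called, and 1 of the list's calls in each direction (Mylk and Myocd) passed the filter only through 1 fraction. Lowest were Tagln3, the neuronal transgelin (-1.61, SE 0.15), Fhl2 (-1.59, SE 0.08) and Fhl1 (-1.13, SE 0.08), both LIM-domain proteins of muscle. Highest were Elk3, a ternary complex factor that binds with SRF, at 78.3 against 4.25 FPKM (3.92, SE 0.12, adjusted p = 3.09e-07), the collagen-binding integrin Itga1 (3.25, SE 0.09) and Mylk, the kinase of the myosin light chain (2.38, SE 0.11). Srf itself had 0.660 FPKM in the CD201+ and 1.35 in the CD201- fraction (-0.49, SE 0.12, adjusted p = 0.00806), below the size threshold. In the coculture table, which was normalized separately, Srf had 70.2 FPKM on OP9 and 81.1 on gelatin. These levels are not compared with those of the sorted cells, and what sets them apart was not tested. Myocd, the muscle coactivator, had 1.36 FPKM in the CD201- and 0.0764 in the CD201+ fraction.

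Against mESC, 21 of the 40 list genes tested were called higher in D5-LSKCD201+ and 3 lower, where 19.5% and 18.1% of all genes were. Of the 21, Mylk, Filip1l and Itga1 passed the filter only through D5-LSKCD201+, so 3 had to differ and the count is not read against that share. The largest values were those of Elk3 (5.61, SE 0.09), the focal adhesion protein Tgfb1i1 (3.96, SE 0.08) and Tpm4 (3.81, SE 0.04), with Des, or desmin (-2.21, SE 0.11), Tagln3 (-2.01, SE 0.13) and Nexn (-1.81, SE 0.18) lowest. In D5-LSKCD201-, 12 were called higher and 2 lower of 40, where 10.9% and 3.48% of all genes were, and of the 12, Myocd and Filip1l passed only through D5-LSKCD201-. The largest values were those of Fhl2 (4.06, SE 0.10), Tgfb1i1 (2.79, SE 0.12) and the matricellular Cyr61 (2.75, SE 0.07). Nexn (-1.46, SE 0.13) and Des (-1.11, SE 0.10) were lower there, and Actn1 had -0.81 (SE 0.52, adjusted p = 0.227).

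The same list was compared with the LSKCD201+ cells of mice. Of the further targets tested, 17 of 19 were called higher in D5-LSKCD201+ than in FL-LSKCD201+ and 15 of 19 than in BM-LSKCD201+, and none lower in either, where 15.1% and 17.5% of all genes were called higher. Among these calls, Des, Itga1 and Ctgf in both comparisons passed the filter only through D5-LSKCD201+. So did Tgfb1i1 against FL-LSKCD201+ and Cald1 against BM-LSKCD201+. These calls had to differ, and the counts of targets are not read against the shares. Of the regulators, 1 of 9 (Elk3) was called higher in each comparison, and 3 and 4 were called lower, beside 19.6% and 27.2% of all genes. Whether targets and regulators differed was not tested. Tgfb1i1 (5.30, SE 0.12), Cyr61 (4.52, SE 0.12) and the actin-binding Cald1 (4.39, SE 0.20) were highest against FL-LSKCD201+, and Elk4 (-1.70, SE 0.23), Rock2 (-1.43, SE 0.18) and Srf (-1.41, SE 0.14, adjusted p = 9.93e-05) were lowest. Against BM-LSKCD201+, Tpm4 (6.00, SE 0.04), Cald1 (5.98, SE 0.09) and Tgfb1i1 (4.91, SE 0.17) were highest, and Myl12b (-2.42, SE 0.05), Elk4 (-2.34, SE 0.09) and Rock2 (-1.79, SE 0.10) lowest. Over the whole list, 22 were called higher and 3 lower of 39 against FL-LSKCD201+, and 20 and 5 of 39 against BM-LSKCD201+, of which 4 and 5 of the higher calls, with Tgfb1i1 in the former and Cald1 in the latter, passed the filter only through D5-LSKCD201+, so these counts are not read against the shares of all genes. Between FL-LSKCD201+ and BM-LSKCD201+, 6 were called higher and 2 lower of 36, where 7.78% and 11.3% of all genes were, and Cald1 and Myh10 among the 6 passed only through FL-LSKCD201+. Cnn3 (2.70, SE 0.10), Tpm4 (2.46, SE 0.09) and Actb (1.996, SE 0.14) were highest, Cyr61 (-2.04, SE 0.33) and Myl12b (-1.45, SE 0.11) were lowest, and Zyx had -0.96 (SE 0.19), which was not called.

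In the coculture contrast, 16 of 39 genes of the list had positive and 23 negative differences, with a median log2 difference of -0.07 beside 0.01 over all genes compared. Of the 12 non-muscle relatives, 10 were negative and 7 had every OP9 library below every gelatin library, with a median of -0.21. Highest on OP9 were Elk3 (1.35, SE 0.14), Csrp2 (0.86, SE 0.14) and Des (0.84, SE 0.16), and lowest were Pdlim7 (-0.52, SE 0.07), Myl6 (-0.47, SE 0.08) and Actg1 (-0.41, SE 0.13). These values carry no test.

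**Figure D5:**
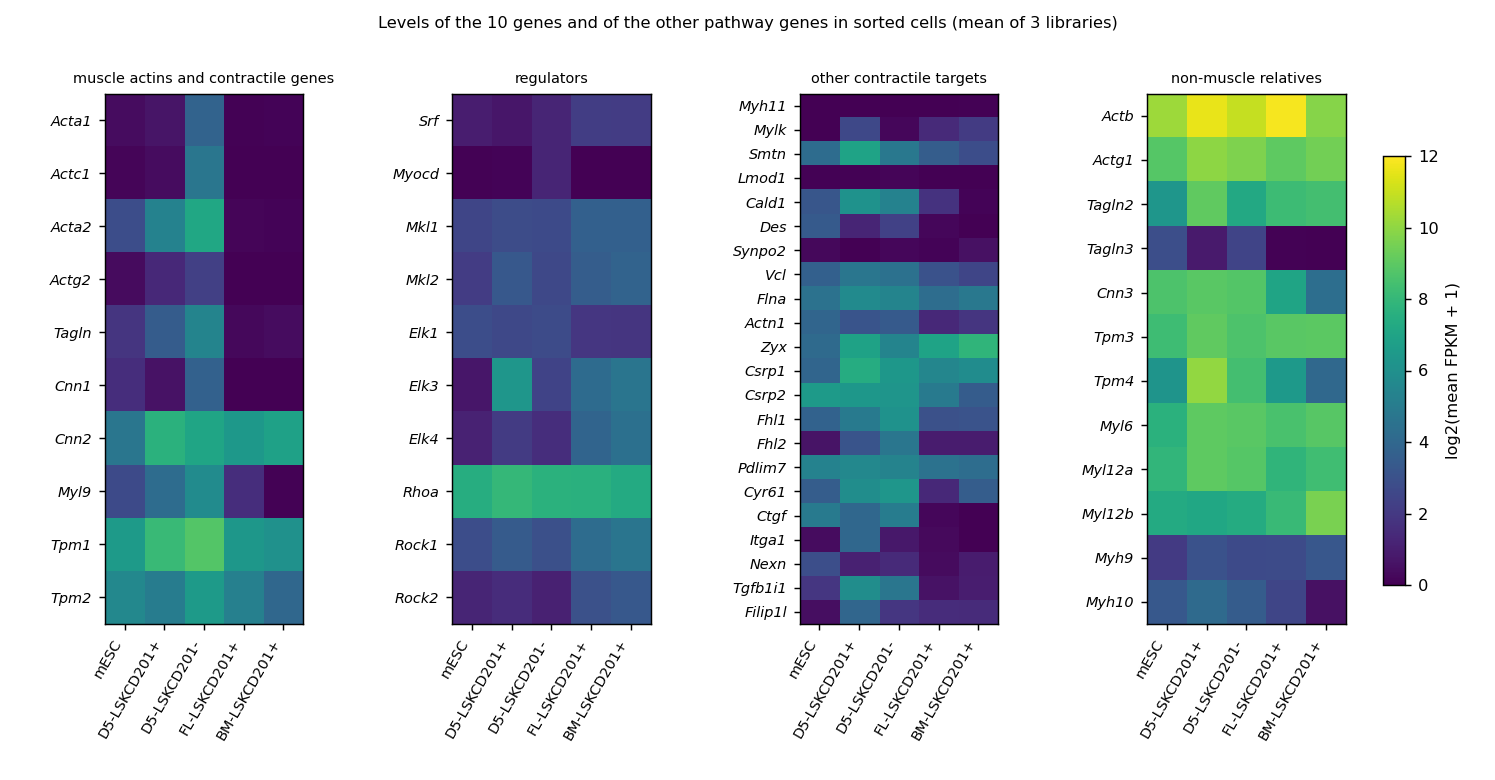
Log2(mean FPKM + 1) of the 10 genes and of the 44 other pathway genes in the sorted groups (mean of 3 libraries, colour scale from 0 to 12). Srf and Myocd had at most 3.47 and 1.36 FPKM as a mean, and Tagln3 was at most 6.27 among the non-muscle relatives.

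Over the 15 sorted-cell libraries, the genes most like Tagln by Pearson r on log2(FPKM + 1), among 14457 genes that averaged 0.5 FPKM or more, were Fhl1 (r = 0.997), Eml1 (0.993), AW551984 (0.992), Acta2 (0.992) and Nnat (0.991). Those most like Acta2 were Eml1 (0.995), Cdh2 (0.995), Has2 (0.993), Tagln (0.992) and Syt13 (0.986). Within the 10 genes, Acta1 and Actc1 had r = 0.990, Acta2 and Myl9 0.968, and Cnn2 lay between -0.18 (with Tpm2) and 0.50 (with Tpm1). The libraries fall into 5 groups of replicates, so these values describe the pattern over groups and carry no p.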

How the data were processed

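RNA-seq was performed by the authors on 21 libraries. Per the labels, total RNA was extracted with TRIzol and libraries were made with a VAHTS mRNA-seq kit, and the submitters' processing notes name HISAT2 2.0.5, StringTie 1.3.3 and Cuffdiff 1.3.0 with GRCm38, and also mm9 with no role given. The authors deposited FPKM per gene and library in a table of 6 coculture libraries, rounded to 2 decimals, and another of 15 sorted-cell libraries. Of 22899 genes in the first, 3578 were blank and not used. Each table was normalized on its own, so levels were compared only within a table. FPKM summed to 483263 to 508307 in the coculture libraries and 508622 to 620332 in the others. Absolute depth is unknown, and the steps of values under 0.15 FPKM put the sorted-cell libraries at 0.889 to 1.29 of the depth of mESC replicate 1. An FPKM of 0 gives no limit of detection here.

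Values were analysed as log2(FPKM + 1), and genes that averaged 0.5 FPKM or more in the 6 libraries of a comparison were fitted with limma 3.58.1 (trend, two-sided) in R 4.3.3, with Benjamini-Hochberg adjustment over all genes tested. Calls were made at an adjusted p below 0.05 with a log2 difference of 1 or more in either direction. The code was tested on simulated data. The members and all gene lists were chosen with earlier results of these data known. Named genes were the 10 members, the 3 highest and 3 lowest of the pathway list in each comparison, and the 5 genes most correlated with Tagln and with Acta2, with Procr, Kit, Ly6a and Pou5f1 as a check of labels. Srf, Myocd, the markers given beside results and values without the libraries that stood apart were chosen after the values were seen.

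FL-LSKCD201+ and BM-LSKCD201+ libraries of the same number deviated together (r = 0.242, 0.202 and 0.159). A fit with the number as a block gave the same 2 calls between FL-LSKCD201+ and BM-LSKCD201+. The fits were repeated with 0.1 added before the log, with quantile normalization, with each library scaled to a common sum, without the filter and with it at 1 FPKM, with a constant prior variance, with a replicate block, in a single fit over the 5 sorted-cell groups, with calls by adjusted p alone and without each library in turn. Figures were drawn with matplotlib 3.10.9 in Python 3.11.15.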

Additional observations from a re-analysis of the deposited data

How the results depend on the processing

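The counts of pairs and values given next leave out calls by adjusted p alone, under which every member passed between the LSK fractions. Over 55 pairs of a gene and a comparison, 48 kept their direction and their side of the threshold under every other alternative. Pairs without a test were counted where they moved by less than the spread between libraries. Of 758 values, 3 turned sign, 2 became called, 7 lost the call and 1 without a test moved by more than that spread. On leaving out each library in turn, the median log2 difference of the members in the coculture contrast ran from -1.04 to -0.81, and the number called from 7 to 8 between the LSK fractions, 5 to 7 in D5-LSKCD201+ and 9 to 9 in D5-LSKCD201- against mESC, 6 to 6 against FL-LSKCD201+, 5 to 6 against BM-LSKCD201+, and 1 to 2 between FL-LSKCD201+ and BM-LSKCD201+, where adjusted p alone gave 4. Tpm2 between D5-LSKCD201+ and FL-LSKCD201+ turned from -0.11 to 0.061 when libraries were scaled to a common sum, and ran from -0.44 to 0.069 on leaving out single libraries (0.034 without FL-LSKCD201+ replicate 2 and 0.069 without replicate 3). The cause was not tested. Actg2 between the LSK fractions was called at a pseudocount of 0.1 (-1.09). Acta1 in the coculture contrast then had -2.57. With a replicate block the counts were 7, 7, 9, 6, 6 and 2, as without it. Between libraries of the same number, r was 0.072 to 0.291 in the coculture contrast and 0.159 to 0.242 for FL-LSKCD201+ against BM-LSKCD201+. In the other comparisons it was -0.197 to 0.102. These values do not settle whether the numbers pair the samples. Quantile normalization moved the median of all genes by over 0.1 in some comparisons, for example from -0.12 to -0.01 between the LSK fractions and from -0.23 to -0.02 against BM-LSKCD201+, with no member's call changed. Depth is known only in relative terms, so values near 0 FPKM cannot be told from absence.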
